A study of Mus musculus with 2 samples.

Results

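The 9 genes described here encode receptors for immunoglobulin G, other receptors of myeloid cells, the adaptor chains that carry their signals and the kinase that reads them. They were chosen by symbol: Fcgr1, Fcgr3 and Fcgr4 (activating Fc gamma receptors), Fcgr2b (the inhibitory Fc gamma receptor), Fcer1g and Tyrobp (signalling adaptors), Trem1 and Trem2 (myeloid receptors that use such an adaptor) and Syk (the kinase). All 9 were found, among 55536 gene rows of which 22028 are annotated as protein-coding. RNA came from the nucleoplasm of bone marrow-derived macrophages, primary cells of the inbred mouse strain C57BL/6J. Both libraries, biological replicates 1 and 2, belong to 1 group: the cells were exposed to Lipid A at 100 ng/ml for 12 h, kept without it for 12 h, and exposed to 100 ng/ml again for 30 min. Lipid A is the part of bacterial lipopolysaccharide that Toll-like receptor 4 recognises. The sex and age of the animals were not collected, per the labels. With no untreated, once-treated or cytoplasmic sample, the data give levels and the spread between 2 libraries, and no test between conditions. The replicates carry separate biosample identifiers under a single donor identifier, and no label says that they came from separate mice or cultures. Whether their spread is technical or biological therefore cannot be told.

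Fc gamma receptors bind the constant part of IgG on immune complexes and coated particles. The activating receptors pair with the common Fc receptor gamma chain (FcRγ, encoded by Fcer1g), and TREM1 and TREM2 with DAP12 (encoded by Tyrobp). Both adaptors carry an immunoreceptor tyrosine-based activation motif (ITAM), in which a pair of tyrosines is phosphorylated by Src family kinases and then bound by the tandem SH2 domains of SYK. FcγRIIB instead carries an inhibitory motif (ITIM), which recruits the lipid phosphatase SHIP-1 and dampens the same pathway.

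The ITAM was the feature that set the adaptors apart in sequence, so the bases that encode it are shown first. They are given 5′ to 3′ on the coding strand from GENCODE M21 transcripts on GRCm38, with the codons of the tyrosines and of the leucines that follow them in capitals, and in FcγRIIB the ITIM codons for isoleucine, tyrosine and leucine.
Fcer1g-201 ITAM: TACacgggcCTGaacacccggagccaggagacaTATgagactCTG
Tyrobp-201 ITAM: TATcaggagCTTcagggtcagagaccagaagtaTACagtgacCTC
Fcgr2b-202 ITIM: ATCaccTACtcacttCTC
The Fcer1g bases lie within chr1:171229889-171230072 on the minus strand, split between exons 4 and 5 of 5. The Tyrobp bases lie within chr7:30415670-30417382 on the plus strand, also split between exons 4 and 5 of 5. The ITIM of Fcgr2b lies in the last exon, at chr1:170961071-170961088 on the minus strand. A search of annotated coding sequences for the ITAM pattern (tyrosine, 2 residues, leucine or isoleucine, 6 to 8 residues, and the same again) found it in 2 of the 9 genes, Fcer1g and Tyrobp, against 2.93% of 21842 genes. The genes were chosen for their part in Fc receptor and ITAM signalling, so their share was partly fixed by that choice and is no test. A match is a description of the letters and not of a working motif. It covered residues 65 to 79 of 86 in Fcer1g-201, 92 to 106 of 114 in Tyrobp-201 and 118 to 132 of 140 in Tyrobp-202.

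Depth was similar in both libraries, with 23845991 expected counts in genes in replicate 1 and 20675294 in replicate 2. The 9 genes held 48355 and 43735 of these. A count of 0 allows up to 0.126 CPM in replicate 1 and 0.145 CPM in replicate 2 (3 counts, counting error only). The starting RNA was 1 µg for replicate 1 but 500 ng for replicate 2, and mitochondrial mRNA took 2.81% and 6.85% of counts. All 8 macrophage markers examined were at 10 TPM or more (Lyz2, the macrophage lysozyme, had the highest mean at 1488 ± 658, SD, n = 2). TPM is a transcript level normalised for length and to a fixed total per library, so that genes can be compared within a library.

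8 of the 9 genes were present at 10 TPM or more in both libraries of the alignment-based table, against 15.6% of all protein-coding genes. The exception was Trem1. In the read-based table Fcgr3 was also below 10 TPM in replicate 1, at 6.31, and had 17.1 in replicate 2. The median TPM of the 9 genes was 95.3 in replicate 1 and 88.7 in replicate 2, whereas that of the 14607 protein-coding genes listed above 0 was 2.79 and 3.36. The genes were chosen with results of these data known, so the high median is a description and not a test.

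**Figure D1:**
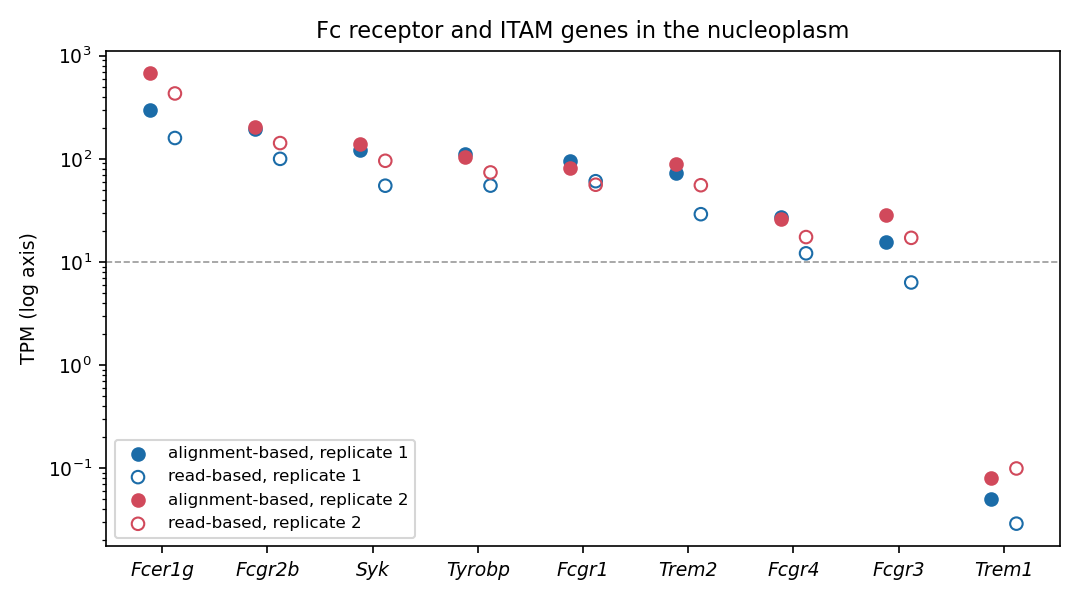
TPM of each gene (log axis) in replicates 1 and 2, with filled points from the alignment-based gene table and open points from the read-based transcript table; the dashed line is 10 TPM. Fcer1g has the highest mean (485 TPM) and Trem1 sits far below the other 8 genes, at 0.05 and 0.08 TPM.

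Among the activating receptors, Fcgr1 had the highest level. Fcgr1 encodes FcγRI, the high-affinity receptor for monomeric IgG (chr3:96282909-96293969, minus strand). It had 95.3 TPM in replicate 1 and 81.0 TPM in replicate 2 (88.2 ± 10.1, SD, n = 2), from 8373 and 5265 counts. Fcgr4 encodes FcγRIV, a receptor of intermediate affinity for IgG2a and IgG2b (chr1:171018920-171029761, plus strand). Its TPM was 27.5 and 26.1 (26.8 ± 0.94), from 1093 and 753 counts. Fcgr3 encodes FcγRIII, the low-affinity activating receptor (chr1:171051174-171064935, minus strand). Its TPM was 15.7 and 28.6 (22.1 ± 9.08), from 675 and 883 counts. The ranges of Fcgr4 and Fcgr3 overlapped, so these receptors could not be ordered, while Fcgr1 lay above both in each library.

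Fcgr2b, the inhibitory receptor (chr1:170958617-170976547, minus strand), was the second highest of the 9 genes. It had 194 TPM in replicate 1 and 202 in replicate 2 (198 ± 5.71, SD, n = 2), from 10264 and 8779 counts. Over all annotated transcripts its range did not overlap that of any activating receptor. Over transcripts annotated as protein-coding, Fcgr2b had 64.6 TPM in replicate 1 and 81.0 in replicate 2, and Fcgr1 had 90.7 and 79.8. On that measure the higher of the pair differed between the libraries. The mean of Fcgr2b over all transcripts placed it 127th among the protein-coding genes above 0, with Fcgr1 374th, Fcgr4 1488th and Fcgr3 1840th. Fcgr2b, Fcgr4, Fcgr3 and Fcer1g are neighbours on chromosome 1.

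Fcgr2b and Fcgr3 share sequence, which limits how well their counts can be separated. Their coding sequences were 87.8% identical over 730 aligned bases, with an unbroken identical run of 129 bases. The other 5 pairs of Fc gamma receptors were 59.5% to 65.5% identical, with runs of at most 14. Of all 31-base words in the annotated transcripts of Fcgr3, 13.4% also occurred in Fcgr2b. Of Fcgr2b words, 4.15% occurred in Fcgr3 and 8.15% in any other gene (242 genes, Fcgr3 included). A read from the shared stretch has to be apportioned by the authors' estimation, and Fcgr3, with fewer counts and the larger shared part, has the less certain level of the pair. Other genes that overlap the receptors had few counts: the antisense gene Gm38204, opposite Fcgr2b, had 8 and 1, and the small nuclear RNA gene Gm26110, within Fcgr4, had 1 and 1.

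Of the adaptors, Fcer1g was the higher and the more variable. FcRγ (chr1:171229572-171234365, minus strand) is also the signalling chain of the IgE receptor and of several C-type lectins. Fcer1g had 296 TPM in replicate 1 and 675 TPM in replicate 2 (485 ± 268, SD, n = 2), from 4994 and 8493 counts, and ranked 39th among protein-coding genes. Tyrobp, encoding DAP12 (chr7:30413760-30417585, plus strand), had 111 and 105 TPM (108 ± 4.17), from 1523 and 1100 counts. Fcer1g exceeded Tyrobp 2.67-fold in replicate 1 and 6.45-fold in replicate 2. In the read-based table the same ratios were 2.89 and 5.84. The direction was thus shared by both libraries and both tables, while its size differed more between libraries than between tables.

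The paired TREM receptors stood at opposite ends of detection. Trem2 encodes a DAP12-coupled receptor for lipids and lipoproteins that is typical of tissue macrophages and microglia (chr17:48346401-48354147, plus strand). It had 73.0 TPM in replicate 1 and 88.7 TPM in replicate 2 (80.8 ± 11.1, SD, n = 2), from 4137 and 3129 counts. Trem1 encodes a DAP12-coupled receptor that amplifies inflammatory signals in neutrophils and monocytes (chr17:48232768-48246924, plus strand). It had 0.05 and 0.08 TPM, from 5 and 6 counts. These counts equal 0.21 CPM in replicate 1 (95% Clopper-Pearson interval 0.0681 to 0.489) and 0.29 CPM in replicate 2 (0.106 to 0.632). Trem2 had 827 times as many counts as Trem1 in replicate 1 and 522 times as many in replicate 2. At 5 and 6 counts, Trem1 is close to the limit of 3 counts that a 0 allows. The pseudogene AC241601.2, which overlaps Trem1 on the opposite strand, had 0 and 2 counts, and the sources used here do not say whether counting used the strand.

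Syk, encoding the tandem-SH2 kinase on which both adaptors converge (chr13:52583173-52648792, plus strand), had 122 TPM in replicate 1 and 139 TPM in replicate 2 (131 ± 12.4, SD, n = 2). Its 17291 and 15327 counts were the most of any of the 9 genes. By mean TPM the order was Fcer1g, Fcgr2b, Syk, Tyrobp, Fcgr1, Trem2, Fcgr4, Fcgr3 and Trem1. Of neighbours in this order, Fcgr1 and Trem2 overlapped in range, as did Fcgr4 and Fcgr3. The read-based table gave the same order of means. There Syk and Tyrobp, Tyrobp and Fcgr1, and Fcgr4 and Fcgr3 overlapped. With 2 libraries, ranges that do not overlap are a weak statement. The deposited credibility bounds, which describe the estimation within a library, did not hold the deposited TPM itself for Fcgr2b and Syk in either library and for Fcgr1 and Fcer1g in replicate 2, and were not used as errors.

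Nuclear RNA holds unfinished as well as finished transcripts, and the annotation splits each gene's TPM into transcript types. Fcgr2b and Syk stood apart from the other 7 genes in this respect. Protein-coding transcripts made up 33.2% of the Fcgr2b TPM in replicate 1 and 40.0% in replicate 2. Transcripts annotated as retained intron held 41.0% and 35.3%, and a processed transcript, Fcgr2b-206, held 25.8% and 24.7%. For Syk, coding transcripts held 55.3% and 65.3%, with retained-intron transcripts at 44.7% and 34.7%. Across 3666 protein-coding genes with 2 or more transcripts and 10 TPM or more, the median coding share was 70.1% in replicate 1 and 75.4% in replicate 2. Only 9.77% and 14.1% of those genes had as small a coding share as Fcgr2b. Syk was nearer to the middle, with 30.4% and 37.2% of genes at or below it. In the read-based table its coding share was 54.1% and 62.8%, against medians of 58.0% and 65.2%. There 45.7% and 47.2% of genes were at or below Syk.

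By TPM the remaining genes were mostly or entirely coding. Fcer1g had 97.2% and 99.2% of its TPM in coding transcripts, and Tyrobp 99.8% and 99.3%. Trem2 had 83.5% and 89.0%, with the rest in the retained-intron transcript Trem2-203. Fcgr3 had 83.5% and 74.5%, the rest also in a retained-intron transcript. Fcgr1 had 95.2% and 98.4%, with the rest in a nonsense-mediated decay transcript. In the read-based table its coding share was 61.6% in replicate 1 and 97.7% in replicate 2, so that the tables differed for Fcgr1 in replicate 1. Fcgr4 has a single annotated transcript, and Trem1 had counts for 1 transcript alone, so their 100% says nothing about processing.

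**Figure D2:**
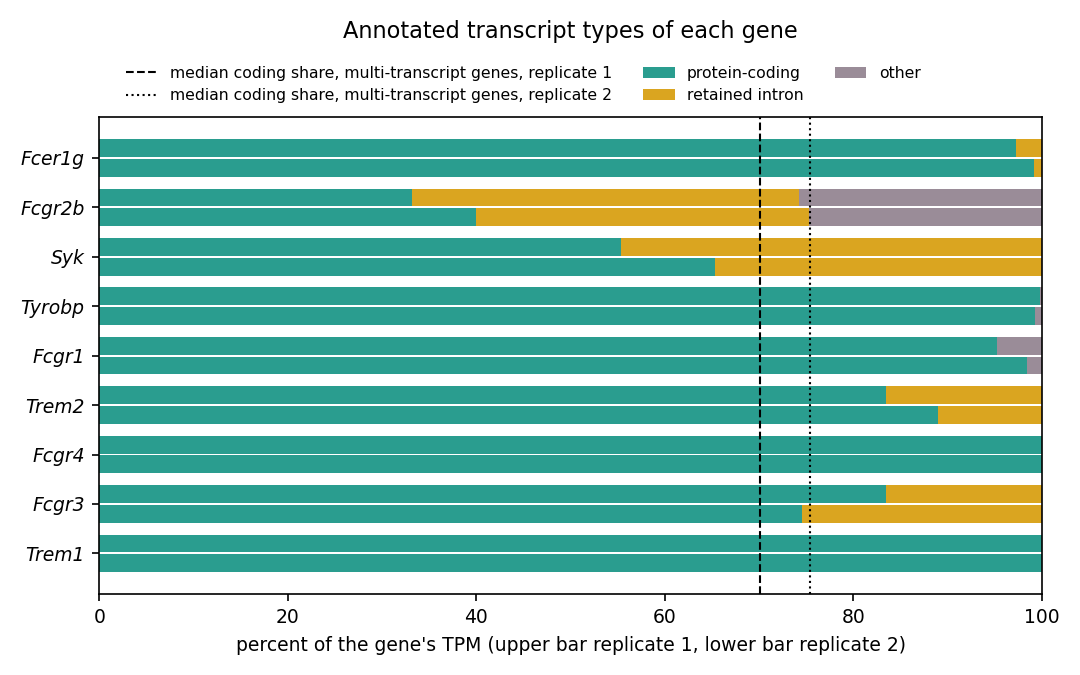
Percent of each gene's TPM in transcripts annotated as protein-coding, retained intron or other, in replicate 1 (upper bar) and replicate 2 (lower bar), from the alignment-based table; vertical lines mark the median coding share of 3666 genes (70.1% and 75.4%). Fcgr2b (33.2% and 40.0% coding) and Syk (55.3% and 65.3%) lie below the medians in both libraries, and Fcgr3 in replicate 2 alone.

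The share depends on whether molecules or reads are counted. TPM weights short transcripts more, and the noncoding Fcgr2b transcripts are mostly shorter: Fcgr2b-207 has 462 bases against 3544 in Fcgr2b-201. By expected counts, coding transcripts held 48.8% of Fcgr2b in replicate 1 and 57.6% in replicate 2. For Syk the count share was 73.9% and 80.7%. For Trem2 it was lower than by TPM, at 48.6% and 60.5%, because the retained-intron transcript Trem2-203 is long (4784 bases). By counts Trem2 thus lay below Syk and near Fcgr2b. Reads from unspliced precursor and from stable transcripts that keep an intron cannot be told apart in these tables.

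The balance between activating and inhibitory receptor RNA turned on this. The summed TPM of Fcgr1, Fcgr3 and Fcgr4 over that of Fcgr2b was 0.712 in replicate 1 and 0.671 in replicate 2 when all annotated transcripts were counted, so the inhibitory receptor had the higher level. With protein-coding transcripts only, a calculation added after the data were seen, the ratio was 2.03 and 1.57. The activating receptors together thus had the higher level of transcripts annotated as coding. This restriction acts unevenly, because Fcgr4 has only a coding transcript annotated and Fcgr1 has no retained-intron one. It can therefore remove retained-intron transcripts from Fcgr2b but not from those genes. The read-based table gave the same directions, at 0.792 and 0.639 for all transcripts and 1.88 and 1.68 for coding transcripts. The sign of the balance was the same in both libraries and both tables, and changed with the class of transcript counted.

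**Figure D3:**
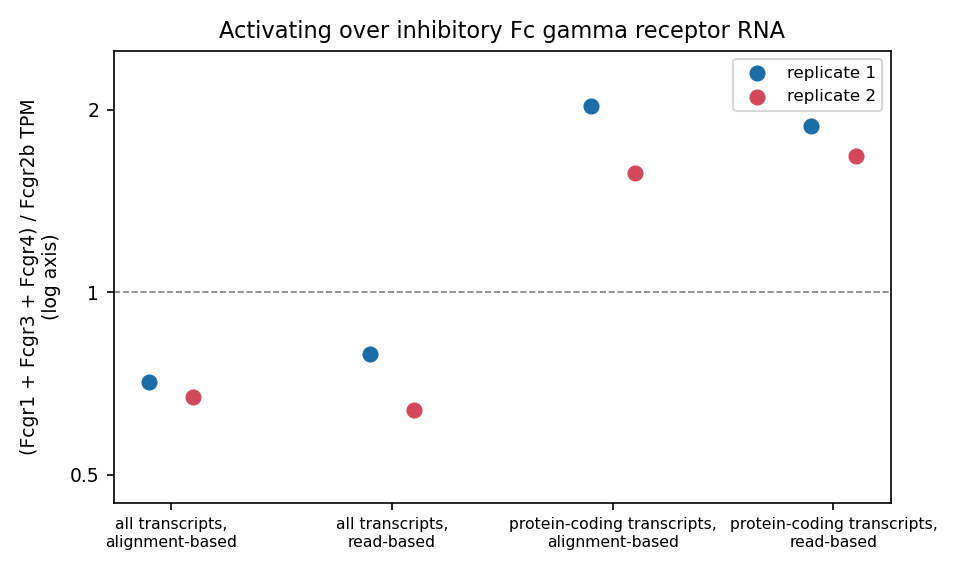
Summed TPM of Fcgr1, Fcgr3 and Fcgr4 divided by that of Fcgr2b (log axis, dashed line at 1) in replicates 1 and 2, for all annotated and for protein-coding transcripts in both tables. The ratio lies between 0.639 and 0.792 for all transcripts and between 1.57 and 2.03 for coding transcripts.

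Within the coding transcripts, alternative exons alter the signalling parts of these proteins. The exons in question are shown as GENCODE M21 has them on GRCm38, all within coding sequence.
Fcgr2b-201 cytoplasmic exon: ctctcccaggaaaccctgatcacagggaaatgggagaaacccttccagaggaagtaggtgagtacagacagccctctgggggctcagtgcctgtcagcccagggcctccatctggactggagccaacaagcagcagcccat
Syk-201 linker exon: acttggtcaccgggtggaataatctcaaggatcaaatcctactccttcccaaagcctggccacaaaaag
Fcer1g-203 added bases of exon 3: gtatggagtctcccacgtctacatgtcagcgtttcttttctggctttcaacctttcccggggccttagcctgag
Trem2-202 added bases of exon 4: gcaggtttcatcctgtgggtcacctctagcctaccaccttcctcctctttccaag
The first is exon 6 of 8 of Fcgr2b-201 (chr1:170963325-170963465, 141 bases), which is absent from Fcgr2b-202. It lengthens the cytoplasmic tail and separates the B-cell type form FcγRIIB1 from the myeloid form FcγRIIB2. The second is exon 7 of 14 of Syk-201 (chr13:52624708-52624776, 69 bases), which encodes part of the linker between the SH2 domains and the kinase domain and is absent from Syk-202. The third (chr1:171230922-171230995, 74 bases) and the fourth (chr17:48351691-48351745, 55 bases) have lengths that are not multiples of 3 and so shift the reading frame.

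Both Fcgr2b forms were present. The form with the whole cytoplasmic exon had 23.8 TPM in replicate 1 and 39.1 TPM in replicate 2, and the form without it had 40.8 and 41.8. The longer form thus made up 36.8% and 48.3% of the pair. In the read-based table it made up 43.8% and 56.3%, so that which form was higher in replicate 2 changed with the table. These transcripts also differ at the 3′ end, since Fcgr2b-201 is 3544 bases long and Fcgr2b-202 is 1462, and the estimate rests on all their differences and not on the exon alone. Markers of B cells, in which the longer form is typical, were low in the alignment-based table, where the 8 genes summed to 4.28 and 6.09 TPM. Only Cd22 (4.25 ± 0.849 TPM, SD, n = 2) averaged at least 1 TPM there. In the read-based table Fcer2a did too, at 2.55 and 2.7 TPM. What part other cells have in the longer form was not tested.

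Syk was mostly in the long form. Transcripts with the linker exon (Syk-201 and Syk-203) had 64.5 TPM in replicate 1 and 87.7 in replicate 2, and Syk-202, without it, had 2.87 and 3.23. The long form was 95.7% and 96.4% of the pair, and 89.7% and 94.3% in the read-based table. Syk-202 also ends upstream of the others, so its share is likewise an estimate over several differences.

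Syk coding transcripts began at either of a pair of first exons. Those from the upstream exon (Syk-202 and Syk-203) had 32.1 TPM in replicate 1 and 34.4 in replicate 2, and Syk-201, from the downstream exon, had 35.2 and 56.6. The read-based values were 16.4 and 25.2 upstream, and 13.3 and 34.9 downstream. The downstream start was the higher in replicate 2 in both tables, while in replicate 1 the tables differed in which was higher. The RefSeq promoter windows on GRCm38.p6, from 250 bases before to 50 after a start, are shown because these data report on both starts. Capitals mark GAGGAA, a core that PU.1, the myeloid transcription factor encoded by Spi1, is known to bind.
Syk upstream start, chr13:52583187-52583486, plus strand: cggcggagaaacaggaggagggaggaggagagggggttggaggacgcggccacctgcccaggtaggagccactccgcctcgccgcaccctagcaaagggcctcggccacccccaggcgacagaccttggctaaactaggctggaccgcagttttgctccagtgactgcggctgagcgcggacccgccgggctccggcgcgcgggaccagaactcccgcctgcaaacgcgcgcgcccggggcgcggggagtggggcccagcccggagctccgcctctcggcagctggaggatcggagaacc
Syk downstream start, chr13:52596632-52596931, plus strand: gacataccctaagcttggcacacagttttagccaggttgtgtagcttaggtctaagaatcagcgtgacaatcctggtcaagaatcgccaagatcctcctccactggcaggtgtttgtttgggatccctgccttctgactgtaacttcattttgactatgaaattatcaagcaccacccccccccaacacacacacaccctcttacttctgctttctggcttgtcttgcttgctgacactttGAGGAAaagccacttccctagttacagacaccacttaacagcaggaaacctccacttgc
GAGGAA (or TTCCTC, its other strand) occurred once in the downstream window and not in the upstream one. RefSeq windows were found for 8 of the 9 genes, 10 windows in all. GAGGAA or TTCCTC occurred in 7 of these windows and in 6 of the 8 genes (Fcgr1, Fcgr3, Fcgr4, Syk, Trem1 and Trem2), against 28.3% of 32851 promoter windows of the same length. The Fcgr3 windows overlap and hold the same match, which is thus counted more than once. The 28.3% is a share of windows and not of genes. Trem1, which was near the limit of detection, and the high Fcgr1 both had it, while Fcer1g and Fcgr2b, the highest by TPM, did not. TATAAA (or TTTATA) occurred in none of the 10 windows and in 13.6% of all. These are matches of letters and show no binding.

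Fcer1g RNA was almost entirely the ITAM-encoding form. Fcer1g-201 had 276 TPM in replicate 1 and 661 TPM in replicate 2, and Fcer1g-203, whose shifted frame lacks the ITAM pattern, had 11.6 and 8.71. In the read-based table the latter had 29.0 and 21.8 TPM, or 20.5% and 5.16% of the pair, so its share is uncertain. Trem2-201 had 46.0 and 63.0 TPM, against 15.0 and 15.9 for Trem2-202, whose frame shift lengthens the predicted product from 227 to 249 residues. Trem2-201 held 75.4% and 79.8% of that pair, with 75.8% and 79.9% in the read-based table. Tyrobp-202 had 71.6 and 104 TPM and Tyrobp-201 had 38.8 and 0. In the read-based table Tyrobp-201 was also lower in replicate 2, at 4.66 TPM in replicate 1 and close to 0 in replicate 2. Both transcripts encode the ITAM, in predicted products of 114 residues for Tyrobp-201 and 140 for Tyrobp-202. The part of read apportioning in the lower Tyrobp-201 value of replicate 2 was not tested.

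The libraries differed little for most of the 9 genes. Counts scaled by TMM factors (which align the bulk of genes between libraries) gave a log2 ratio of replicate 2 over replicate 1 for the 8 genes that averaged at least 100 counts. None of the 8 lay beyond 2-fold, against 3.49% of the 9675 genes at that depth, so that a count of none among 8 is no different from the background. The median absolute log2 ratio was 0.31 for the 8 genes and 0.26 for all. Of the 8, 3 were higher in replicate 2 and 5 lower.

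Fcer1g came nearest to 2-fold, with a log2 ratio of 0.96 (95% exact interval from counting 0.91 to 1.01), or 1.95-fold. Ratios as large were found in 3.94% of genes. By TPM the ratio was 2.28-fold, which took Fcer1g beyond 2-fold, and by read-based counts it was 0.74 on the log2 scale. Fcgr3 had a log2 ratio of 0.58 (0.44 to 0.73) and Syk 0.02. Fcgr2b was at -0.03. The lower values in replicate 2 were those of Fcgr1 at -0.47 (-0.52 to -0.42), Fcgr4 at -0.34, Tyrobp at -0.27 and Trem2 at -0.21. By TPM the median protein-coding gene was 1.2-fold higher in replicate 2, a log2 shift of 0.27. On that scale Fcgr2b and Trem2 had log2 ratios above 0, at 0.06 and 0.28. The replicates also differed in starting RNA and in mitochondrial share, and the part of either in the Fcer1g difference was not tested. The intervals of Fcgr2b and Syk include 0, and all intervals cover counting error only.

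**Figure D4:**
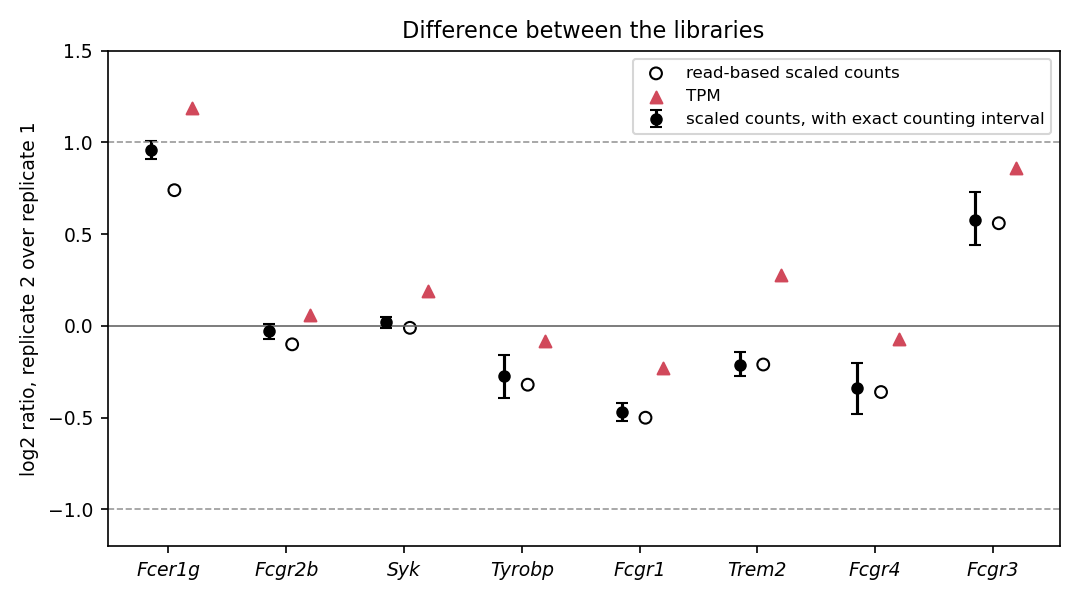
Log2 ratio of replicate 2 over replicate 1 for the 8 genes averaging at least 100 counts, from scaled counts (filled, with the 95% exact counting interval), read-based scaled counts (open) and TPM (triangles); dashed lines mark 2-fold. Fcer1g is the highest by each measure (0.96 from scaled counts) and lies beyond 2-fold by TPM alone.

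The genes that act before and after the 9 were taken from 6 lists. Averaged over the libraries, 17.5% of all protein-coding genes reached 10 TPM, and this is the share against which the counts below stand. Upstream, 5 of 10 Src family and Tec kinases reached it. These were led by Lyn (85.9 ± 9.22 TPM, SD, n = 2), a main ITAM kinase of myeloid cells. Csk, which restrains the Src family by phosphorylation, had 37.9 ± 5.03. The lowest was Yes1 with 1 and 8 counts, and Lck, the T-cell kinase, had 7 and 0.

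Downstream, 20 of 24 adaptors and effectors reached 10 TPM. The highest were Pik3ap1 (176 ± 28.9 TPM, SD, n = 2), the adaptor BCAP that brings in phosphoinositide 3-kinase, Malt1 (123 ± 50.1), the paracaspase of the CARD9-BCL10-MALT1 complex, and Prkcd (115 ± 31.8), the protein kinase C that links SYK to CARD9. The lowest was Lat, the T-cell and mast-cell scaffold, with 4 and 16 counts. Its myeloid relative Lat2, named after its values were seen, had 97.1 ± 18.2 TPM. None of these genes lay beyond 2-fold between the libraries at a mean count of 100.

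Of the inhibitory arm, 17 of 20 genes were at 10 TPM or more. This list held the highest mean TPM of the 6 lists: Lilrb4a, an ITIM receptor, had 880 TPM in replicate 1 and 1232 TPM in replicate 2 (1056 ± 249, SD, n = 2). Sirpa, the ITIM receptor for CD47, had 719 ± 39.6 and Pirb, another ITIM receptor, 228 ± 18.7. All 3 had means above that of Fcgr2b. The lowest was Ubash3b, a phosphatase that acts on SYK, at 4.29 ± 1.03. Clec4a2, an ITIM lectin, was beyond 2-fold between the libraries, with a log2 ratio of 1.05 from 347 and 625 counts.

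A list of other myeloid receptors was mostly low, with 6 of 23 at 10 TPM or more. Most, but not all, of them signal through FcRγ, DAP12 or a hemITAM (a motif with a single tyrosine). 1 gene of this list, Pira6, had no row under that symbol. Clec4e, the FcRγ-coupled lectin Mincle, led with 260 TPM in replicate 1 and 475 in replicate 2 (368 ± 152, SD, n = 2). Clec4d had 69.9 ± 10.4 and Pira2 37.5 ± 9.06, whereas Ncr1 had 0 counts in both. Of the 12 genes of this list that averaged at least 100 counts, 3 lay beyond 2-fold, all higher in replicate 2, against 3.49% of all genes in either direction: Clec4n (log2 ratio 1.10), Clec7a (1.17) and Cd300ld (1.05). Clec5a at 0.99, Cd300lb at 0.79 and Clec4e at 0.51 were also higher in replicate 2, within 2-fold. The rest were Treml2 at 0.29, Pira2 at 0.22, Clec4d at 0.19, Pilrb2 at -0.06, Pilrb1 at -0.42 and Cd300c2 at -0.53. The number at 10 TPM or more was 4 in replicate 1 alone and 10 in replicate 2 alone.

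Of 14 other Fc receptors and immunoglobulin binding proteins, most were low and 2 reached 10 TPM: Trim21, the cytosolic antibody receptor, at 22.8 ± 0.643 TPM (SD, n = 2), and Fcgrt, the neonatal Fc receptor, at 12.1 ± 0.191. Fcrls followed, at 3.95 ± 0.0141 from 314 and 225 counts. Fcer2a, with 4 and 3 counts, had 2.55 and 2.7 TPM in the read-based table. The IgE receptor chains Fcer1a and Ms4a2, which use the same FcRγ chain in mast cells, had 0 and 2 counts, and 0 and 1. Pigr, Fcmr and Fcamr had 0 counts in both libraries. Of 8 signalling chains and kinases of lymphocytes, not all of which carry an ITAM, none reached 10 TPM. Hcst, encoding DAP10, had the highest mean, at 2.5 and 0.64 TPM from 20 and 4 counts, although Cd79b was higher in replicate 2 at 0.88 TPM. The next means were those of Cd79b (0.67 ± 0.297) and Cd247 (0.285 ± 0.134), while Cd3e and Cd3g had 0 counts. In the read-based table Hcst had 3.7 and 4.4 TPM, and Cd3d had 1.21 and 3.99.

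**Figure D5:**
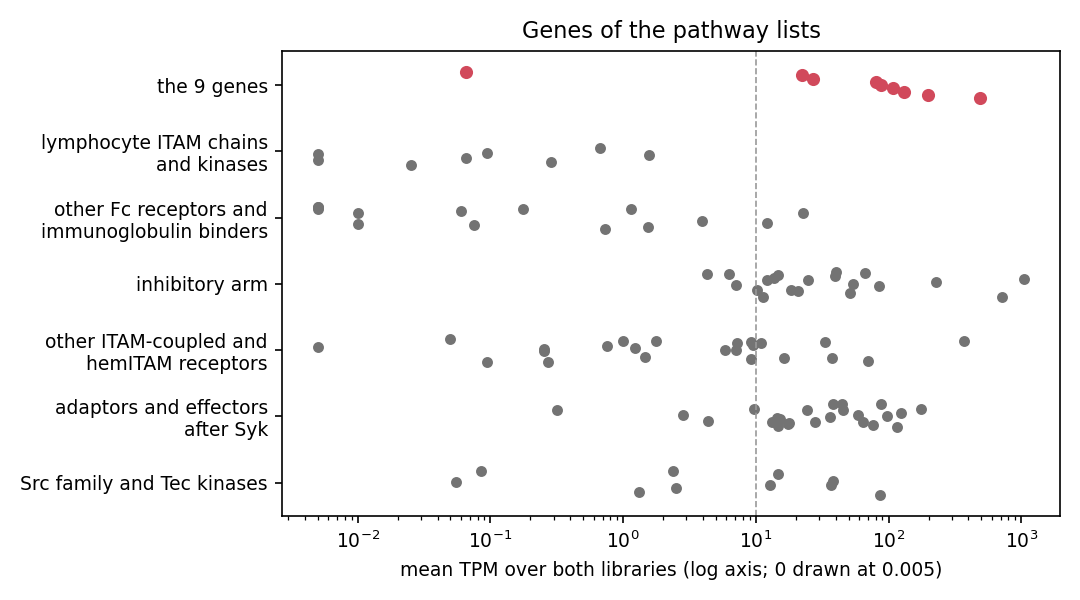
Mean TPM over both libraries (log axis, dashed line at 10 TPM) of every gene in 6 lists around the pathway (grey) and of the 9 genes (red); vertical scatter within a row has no meaning. The inhibitory arm (17 of 20) and the adaptors and effectors (20 of 24) lie mostly above the line, and the lymphocyte chains (0 of 8) all lie below it.

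Fcer1g, Tyrobp, Syk and several receptors are also used by other cells, so markers of those cells were examined in the same libraries. Sums, means and counts are those of the alignment-based table unless stated. The 10 T and NK cell markers summed to 0.23 and 0.08 TPM, with 7 at 0 counts in both libraries and Lck the highest mean at 0.085. In the read-based table Cd3d was higher, at 1.21 TPM in replicate 1 and 3.99 in replicate 2. The 8 neutrophil markers summed to 1.63 and 2.73 TPM, with S100a9 highest at 0.905 ± 0.276 (SD, n = 2) and Elane, Ly6g and Cxcr2 at 0 counts. Cxcr2 had 0.594 and 1.67 TPM in the read-based table. The 8 mast cell and basophil markers summed to 0.43 and 0.56, with Kit highest at 0.41 and Mcpt4, Mcpt8 and Tpsb2 at 0 counts. The 8 dendritic cell markers summed to 3.27 and 3.56, with Batf3 highest at 1.17 and Cd209a at 0. Fibroblast markers, 7 genes, summed to 0.3 and 0.17, with Col1a2 highest at 0.07 and Lum at 0. The 7 platelet and megakaryocyte markers summed to 19.1 and 29.7 TPM, of which Pf4 gave 15.4 and 26.9. Next in that list was Clec1b at 1.23 ± 0.219. Fewer cells of a type and less RNA per cell cannot be told apart in bulk libraries.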

How the data were processed

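Nucleoplasmic, ribosomal RNA-depleted RNA was measured in 2 libraries of 1 group. Per the file headers, the tables use assembly mm10 and GENCODE M21. The aligner, quantifier, trimming and strand setting were not given in the sources used here, which bears on overlapping genes and shared sequence. The deposited alignment-based tables hold expected counts (estimated, with ambiguous reads shared among genes), TPM, FPKM and each transcript's percent of its gene. The deposited read-based transcript tables hold estimated counts and TPM, summed here to genes. Rows other than mouse genes (26345 tRNA, spike-in and phage rows, 1.1% and 0.267% of counts) were left out of totals.

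The members and lists were chosen with earlier results of these data known. Named are the 9 genes, in each pathway list the 3 highest and the lowest by mean TPM plus genes beyond 2-fold, and in each marker list the highest gene. Some genes that this covers are not reported here. Lat2, further marker genes at or near 0 counts and the genes that overlap members were named after their values were seen. With 1 group there is no test and no p-value. Expected counts were rounded and scaled with TMM factors (edgeR 4.0.16; 0.997 and 1.0), and log2 ratios used a prior count of 0.5 for genes averaging at least 100 counts. Clopper-Pearson intervals at 95% cover counting error only, because the reads carry no molecular identifiers and may be copies. Levels relative to other genes used log2(TPM + 0.1). The ratio calculation was tested on simulated data. Transcript shares used genes of 10 TPM or more with 2 or more transcripts. Sequences came from GENCODE M21 transcripts and RefSeq promoter windows (GRCm38.p6), and 31-base words measured shared sequence. Alternatives were the read-based table, FPKM, each library alone, other pseudocounts, prior counts, scalings (DESeq2 1.42.0 size factors, total count) and filters. Tools were Python 3.11.15 with pandas 2.3.3, numpy 2.4.6 and scipy 1.17.1.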

Additional observations from a re-analysis of the deposited data

How the results depend on the processing

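The median TPM of the 9 genes, 88.2 over both libraries, was 58.3 in the read-based table and 131 in FPKM, and 88.7 to 95.3 with a library left out. Their median log2(TPM + 0.1) lay 4.80 above that of protein-coding genes. This difference was 4.45 with a pseudocount of 1, 5.26 in the read-based table, 7.78 without a filter on low values, 3.53 against the genes that reached 1 TPM in both libraries, and 4.46 to 4.91 with a library left out, so the median of the 9 genes was the higher under each of these. The number beyond 2-fold was 0 with every count scaling and filter tried and 1 by TPM (Fcer1g), a measure by which 5.58% of all genes lay beyond 2-fold. The activating over inhibitory ratio had a log2 of -0.53 over all transcripts and 0.84 over coding transcripts, an alternative chosen after seeing the data. Among the library ratios, the signs of Fcgr2b and Trem2 changed by TPM, and that of Syk (0.02) became -0.01 in the read-based table; the order of the Fcgr2b forms and of the Syk first exons changed with the table in 1 library each. The lists of other myeloid receptors and other Fc receptors were the least steady: 10 genes against 6 with replicate 1 left out, and 1 against 2 in the read-based table. No paired analysis was possible because there is 1 group. Depth limits Trem1 alone among the 9 genes.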
